A study of Homo sapiens with 14 samples.

Results

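The proteasome genes described here are the protein-coding genes whose symbol begins with PSMA, PSMB, PSMC, PSMD, PSME or PSMG followed by a number. Of 49 such genes in RefSeq, 42 were matched by position to a row of the deposited gene table, which lists 12425 genes. The other 7, PSMA2, PSMA8, PSMB8, PSMB9, PSMB11, PSMD10 and PSMG4, had no matched row and were not analysed here. Rows without a symbol overlapped PSMB9 and PSMG4 in part, too little for a match, so these genes may still be listed. By role, the 42 genes comprised 6 genes of the alpha ring, 8 of the beta ring, 6 ATPases of the base, 3 further base subunits, 8 lid subunits, 5 assembly chaperones and 4 activators. PSMC3IP, a cofactor of homologous recombination, and PSME3IP1, a partner of the activator PSME3, also carry such a symbol but are not proteasome subunits.

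ChIP-seq, the sequencing of DNA recovered with an antibody, was used to map RNA polymerase II (RNAPII) in BJ hTERT cells, foreskin fibroblasts immortalised with telomerase. One antibody was directed at the N-terminal domain of RPB1, the largest RNAPII subunit, and reads total RNAPII. The other was directed at RPB1 phosphorylated on serine 2 of its C-terminal repeats (Ser2), a mark of elongating polymerase. Each antibody was used in 7 groups of 1 library each: 14 h with no treatment named, and 16, 19 and 22 h with DMSO, the vehicle, or with ATRi, an inhibitor of the replication stress kinase ATR. What the hours count from, the compound and its dose, and whether and how the cells were synchronised are not given in the sources used here. All groups share the one cell line.

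The proteasome is the large protease that degrades proteins tagged with ubiquitin. Its core is a barrel of alpha and beta rings, in which PSMB5, PSMB6 and PSMB7 carry the chymotrypsin-like, caspase-like and trypsin-like active sites, and PSMB10 replaces PSMB7 in the immunoproteasome. A regulatory particle, built from a base with a ring of ATPases and from a lid, recognises, unfolds and feeds in substrates. Transcription of many of the subunit genes is known to respond together to the factor NFE2L1, which binds antioxidant response elements with small MAF proteins.

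Because the antioxidant response element is the known element shared by many of these promoters, the 250 bases before the RefSeq start of each gene (GRCh38.p14) were searched on both strands for the core TGACNNNGC. RefSeq promoters were given for 36 of the 42 proteasome genes and for 8586 genes of the table in all. The core was found in 10 of the 36 (27.8%), against 12.4% of all promoters. The 11 matches in these 10 promoters are shown with up to 10 bases on each side, read on the strand that carries the core, with the 9 bases of the core in capitals.
PSMB3, chr17:38752627-38752655, plus strand: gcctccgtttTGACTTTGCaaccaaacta
PSMD12, chr17:67366724-67366752, minus strand: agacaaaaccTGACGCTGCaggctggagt
PSMD3, chr17:39980760-39980788, plus strand: tcccctttgtTGACTCGGCcatcggcctg
PSMD5, chr9:120843038-120843066, minus strand: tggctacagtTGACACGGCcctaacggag
PSMD9, chr12:121888631-121888659, minus strand: gcgcctgtggTGACCCGGCaggagtagcg
PSMD9, chr12:121888678-121888706, plus strand: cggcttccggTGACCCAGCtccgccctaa
PSME1, chr14:24136098-24136126, plus strand: atggcagggcTGACCCCGCctcctccatc
PSME2, chr14:24146767-24146795, minus strand: ccctggactgTGACCCAGCcagcaccgcc
PSME4, chr2:53971009-53971037, plus strand: gctctgctggTGACGCTGCagccgccggg
PSMG1, chr21:39183616-39183644, minus strand: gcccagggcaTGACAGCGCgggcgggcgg
PSMG2, chr18:12658689-12658717, plus strand: cagtttcccgTGACCCCGCggccgctctg
The matches in PSME2, PSMG1 and PSMG2 lay inside the gene span of the deposited table, which begins further upstream than RefSeq for these 3 genes. None of the 11 matches overlapped a match to another motif searched. Among the other motifs, CCAAT was found in 44.4% of the 36 against 35.3%, the ETS site CCGGAAG in 22.2% against 16.9%, and the GC box GGGCGG in 69.4% against 68.9%. A match is a string of letters and does not show that a factor binds there.

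The libraries held 17181179 to 62368915 reads, and the table gives RPM, the reads over a whole gene span per 1000000 reads of the library. Reads over a proteasome gene ranged from 31 (PSMB6, total RNAPII, 14 h) to 6568 (PSME4, total RNAPII, 19 h with ATRi), so counting error was largest for the short genes. The share of library reads that fell in listed nuclear genes ran from 35.8% to 72.0% and was 63.5% or more in every 19 h library, which sets the scale of every RPM value in them. Differences are therefore given on the deposited scale and, where calls depend on it, after centring each library on its median gene. All 9 fibroblast markers checked were named in the table. Of 4 keratinocyte markers KRT14 alone was named, at 0.236 to 1.18 RPM, and of 4 endothelial or blood and 3 melanocyte markers 0 were. Only 86.4% of the listed genes received a symbol, so a marker without one may still be listed. In a bulk assay, fewer cells carrying polymerase on a gene and less polymerase per cell cannot be told apart.

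Proteasome genes carried more RNAPII per length than the typical listed gene. The median over the 42 genes was 1.24 RPM per kb of span for total RNAPII and 0.887 RPM per kb for Ser2, as means of the 4 libraries without ATRi, against 0.778 and 0.613 RPM per kb over the 11985 genes with at least 1 RPM. With each antibody 39 of the 42 genes lay above the median gene. Their spans were also shorter, at a median of 17694.5 bp against 31994 bp. Role groups overlapped widely: medians of total RNAPII ran from 0.878 RPM per kb for the assembly chaperones to 1.85 RPM per kb for the activators, leaving out the pair of binding partners.

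PSMB10, the immunoproteasome trypsin-like subunit, had the highest level of the 42 at 7.70 ± 4.01 RPM per kb of total RNAPII and 5.22 ± 3.23 RPM per kb of Ser2 (mean ± SD, n = 4 libraries at 14, 16, 19 and 22 h). PSMC3IP followed at 4.51 ± 2.26 and 3.13 ± 1.60 RPM per kb, and PSMB4, a structural beta subunit, at 4.28 ± 2.81 and 2.98 ± 2.05 RPM per kb. The SDs span the hours, which all genes share, so neighbours were compared library by library: PSMB10 lay above PSMC3IP in 4 of 4 libraries with each antibody, and PSMC3IP above PSMB4 in 3 of 4. At the other end stood PSMB3, a structural beta subunit, at 0.422 ± 0.176 and 0.347 ± 0.147 RPM per kb, and PSMA1, an alpha subunit, at 0.316 ± 0.0291 and 0.328 ± 0.0413 RPM per kb. PSMB3 lay above PSMA1 in 2 of the 4 libraries with total RNAPII and 2 of the 4 with Ser2. PSMA1 (chr11:14504874-14643635) has the longest span of the 42, 138762 bp, and its level per kb is an average over all of it.

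**Figure D1:**
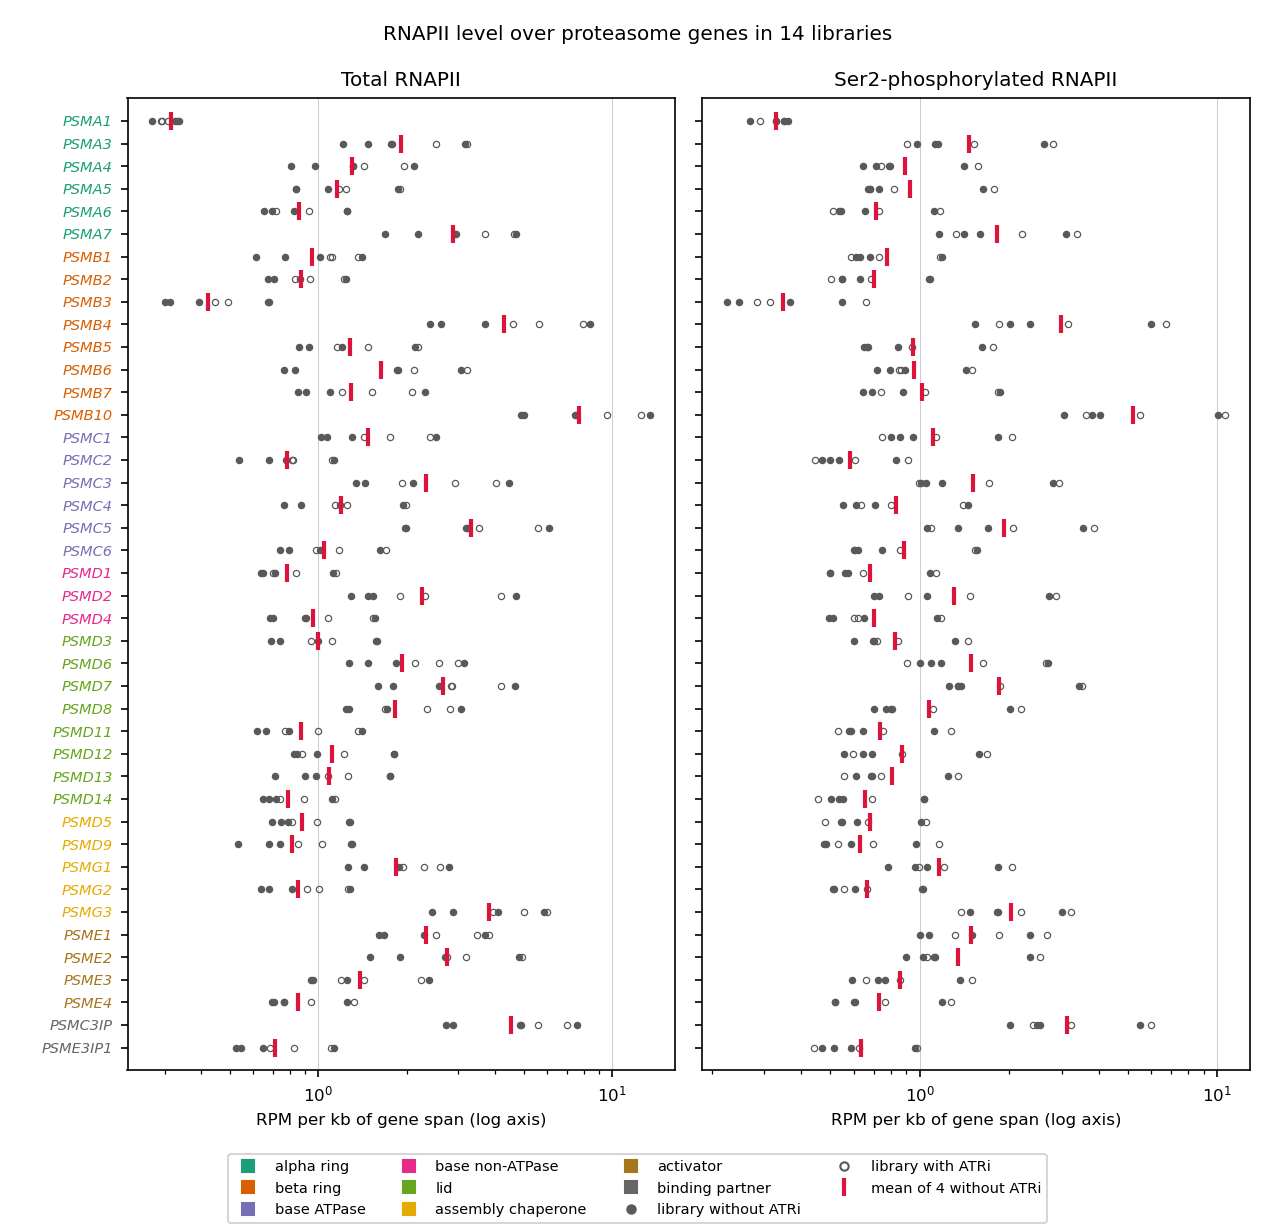
RNAPII over each of the 42 proteasome genes in RPM per kb of gene span (log axis), total RNAPII on the left and Ser2 on the right. Filled points are the 4 libraries without ATRi, open points the 3 with ATRi, and red bars the mean of the 4; names are coloured by role. PSMB10 is highest and PSMA1 lowest with both antibodies, and the 19 h libraries form the right-hand points of most genes.

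The catalytic subunit genes show the course over the hours in each library, given below as DMSO and then ATRi at 16, 19 and 22 h. Total RNAPII over PSMB5 (chr14:23016543-23035230) was 16.1 RPM at 14 h, 22.6 and 21.6 RPM at 16 h, 39.8 and 40.8 RPM at 19 h, and 17.4 and 27.5 RPM at 22 h. Its Ser2 values were 12.6 RPM at 14 h, 12.2 and 12.4 RPM at 16 h, 30.3 and 33.1 RPM at 19 h, and 15.8 and 17.6 RPM at 22 h. Both antibodies were highest at 19 h, with or without ATRi, and for total RNAPII the 22 h DMSO library lay near the 14 h library. The span listed for PSMB5 is longer than in RefSeq, so its reads come in part from flanking sequence by that annotation.

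PSMB6 (chr17:4796144-4798503) has the shortest span, 2360 bp, and the fewest reads. Total RNAPII there was 1.80 RPM at 14 h, 4.42 and 4.36 RPM at 16 h, 7.25 and 7.54 RPM at 19 h, and 1.97 and 5.01 RPM at 22 h. Ser2 over PSMB6 was 1.87 RPM at 14 h, 1.70 and 2.05 RPM at 16 h, 3.38 and 3.55 RPM at 19 h, and 2.11 and 2.00 RPM at 22 h. The 19 h libraries were again highest. At 22 h total RNAPII was higher with ATRi by 1.16 ± 0.27 log2 (counting SE), while Ser2 differed by -0.058 ± 0.22. The median gene of these pairs was higher by 0.50 and 0.16 log2. The difference is of log2(RPM + 0.5), whereas the SE is that of the raw read counts. It leaves out the spread between libraries, which 1 library per group cannot give.

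PSMB7 (chr9:124353466-124415444) had 52.9 RPM at 14 h, 67.8 and 74.9 RPM at 16 h, 143 and 129 RPM at 19 h, and 56.4 and 94.4 RPM at 22 h of total RNAPII. Ser2 over PSMB7 was 42.8 RPM at 14 h, 39.9 and 45.9 RPM at 16 h, 116 and 113 RPM at 19 h, and 54.6 and 64.7 RPM at 22 h. Its 19 h libraries stood above all others with both antibodies. For PSMB10 (chr16:67934502-67937087), which takes the place of PSMB7 in the immunoproteasome, total RNAPII was 12.7 RPM at 14 h, 19.3 and 19.4 RPM at 16 h, 34.8 and 32.5 RPM at 19 h, and 12.9 and 24.8 RPM at 22 h. The Ser2 values of PSMB10 were 9.81 RPM at 14 h, 7.89 and 9.37 RPM at 16 h, 25.9 and 27.4 RPM at 19 h, and 10.4 and 14.2 RPM at 22 h. PSMB10 shows the same order of hours, and over both genes, for total RNAPII at 22 h, the ATRi library exceeded the DMSO library.

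The high values at 19 h were shared by the family. Against 16 h, 41 of 42 genes were higher at 19 h in both the DMSO and the ATRi pair, for total RNAPII (85.2% of all genes) and for Ser2 (89.5%). PSMA1 was the exception each time. The median proteasome gene was higher by 0.74 (DMSO) and 0.71 (ATRi) log2 for total RNAPII, against 0.58 and 0.48 for the median gene. For Ser2 the values were 1.16 and 1.18 against 0.90 and 0.88. These are descriptions, since the design set no test at 19 h and what the 19 h libraries share cannot be told apart from the hour. The share of reads in listed genes was also highest at 19 h, and its part in the result was not tested. From 14 to 16 h without ATRi the antibodies moved apart. Total RNAPII was higher at 16 h on all 42 genes (86.9% of all genes), with a median of 0.36 log2 against 0.26 for all, whereas Ser2 was lower on 35 of 42 (64.9%), with a median of -0.11 against -0.065.

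Between 16 and 22 h, Ser2 rose on 30 of the 42 proteasome genes and fell on 0 (limma, adjusted p under 0.05), where 39.0% of all genes tested rose and 0.918% fell. The fit takes the library with DMSO and the one with ATRi at each hour as its 2 measurements of that hour. The median over the 42 genes was 0.33 log2, against 0.21 for all genes, and 36 of the 42 lay above the median gene. That gap of 0.125 log2 was 0.070 in the DMSO pair alone, 0.20 in the ATRi pair alone and 0.057 with the trend on read density removed, where 28 of 42 lay above the median gene. By role the test was passed by 3 of 6 alpha, 5 of 8 beta, 4 of 6 ATPase, 2 of 3 other base, 7 of 8 lid, 4 of 5 chaperone and 3 of 4 activator genes, and by both binding partners. The whole Ser2 libraries moved the same way, with 35.8% and 37.1% of reads in listed genes at 16 h and 40% and 44.3% at 22 h. After centring, 6 of 42 rose (10.2% of all genes), namely PSMA7, PSMB4, PSMB7, PSMC5, PSMD2 and PSMD6, and 0 fell (10.5%). edgeR called 5 of 42 (9.68%) and DESeq2 1 of the 36 to which it gave an adjusted p (6.29%), with 0 lower (7.6% and 6.03%). With the trend on read density removed, 4 of the 30 lay below 0, none past the test; 1, PSMC5, was higher (5.0%) and 0 were lower (3.25%).

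PSMC5, an ATPase of the base, had Ser2 values of 6.56 RPM at 14 h, 5.15 and 5.32 RPM at 16 h, 17.3 and 18.8 RPM at 19 h, and 8.30 and 10.0 RPM at 22 h, with DMSO given before ATRi. Both 22 h libraries lay above both 16 h libraries, by 0.75 ± 0.11 (SE; adjusted p = 1.21e-04) log2. PSMB4 had Ser2 values of 4.85 RPM at 14 h, 3.71 and 4.45 RPM at 16 h, 14.5 and 16.2 RPM at 19 h, and 5.67 and 7.60 RPM at 22 h. The 22 h values again exceeded the 16 h values, by 0.63 ± 0.12 (SE; adjusted p = 6.17e-04) log2. PSMD2, the large scaffold subunit of the base, had 7.55 RPM at 14 h, 7.24 and 9.47 RPM at 16 h, 28.2 and 29.7 RPM at 19 h, and 10.9 and 15.2 RPM at 22 h of Ser2, a difference of 0.61 ± 0.11 (SE; adjusted p = 5.03e-04) log2.

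PSMA7, an alpha subunit, had 9.48 RPM at 14 h, 7.76 and 8.91 RPM at 16 h, 20.9 and 22.7 RPM at 19 h, and 10.7 and 14.8 RPM at 22 h of Ser2 and a difference of 0.57 ± 0.11 (SE; adjusted p = 7.62e-04) log2. PSMB7, whose values stand above, differed by 0.47 ± 0.091 (SE; adjusted p = 8.10e-04) log2. PSMA3, another alpha subunit, had 30.6 RPM at 14 h, 26.7 and 24.7 RPM at 16 h, 71 and 76.1 RPM at 19 h, and 31.2 and 41.4 RPM at 22 h of Ser2 and differed by 0.48 ± 0.11 (SE; adjusted p = 0.0022) log2, or 0.25 log2 with a limma adjusted p of 0.053 after centring. For these 6 genes with the smallest adjusted p, the 16 and 22 h groups of 2 libraries did not overlap. Over all 42, 41 were higher at 22 h in both pairs (71.6% of all genes), the exception being PSMB6.

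The smallest differences were those of PSME2, PSMA1 and PSMB6. PSME2, a subunit of the interferon-inducible activator, had 3.80 RPM at 14 h, 4.31 and 4.45 RPM at 16 h, 9.90 and 10.7 RPM at 19 h, and 4.70 and 4.75 RPM at 22 h of Ser2, with a difference of 0.10 ± 0.12 (SE; adjusted p = 0.54) log2. PSMA1 had 48.7 RPM at 14 h, 45.8 and 45.8 RPM at 16 h, 37.3 and 40.2 RPM at 19 h, and 50.1 and 48.4 RPM at 22 h, a difference of 0.11 ± 0.089 (SE; adjusted p = 0.36) log2, and unlike the others it was lowest at 19 h. PSMB6 differed by 0.11 ± 0.15 (SE; adjusted p = 0.58) log2.

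**Figure D2:**
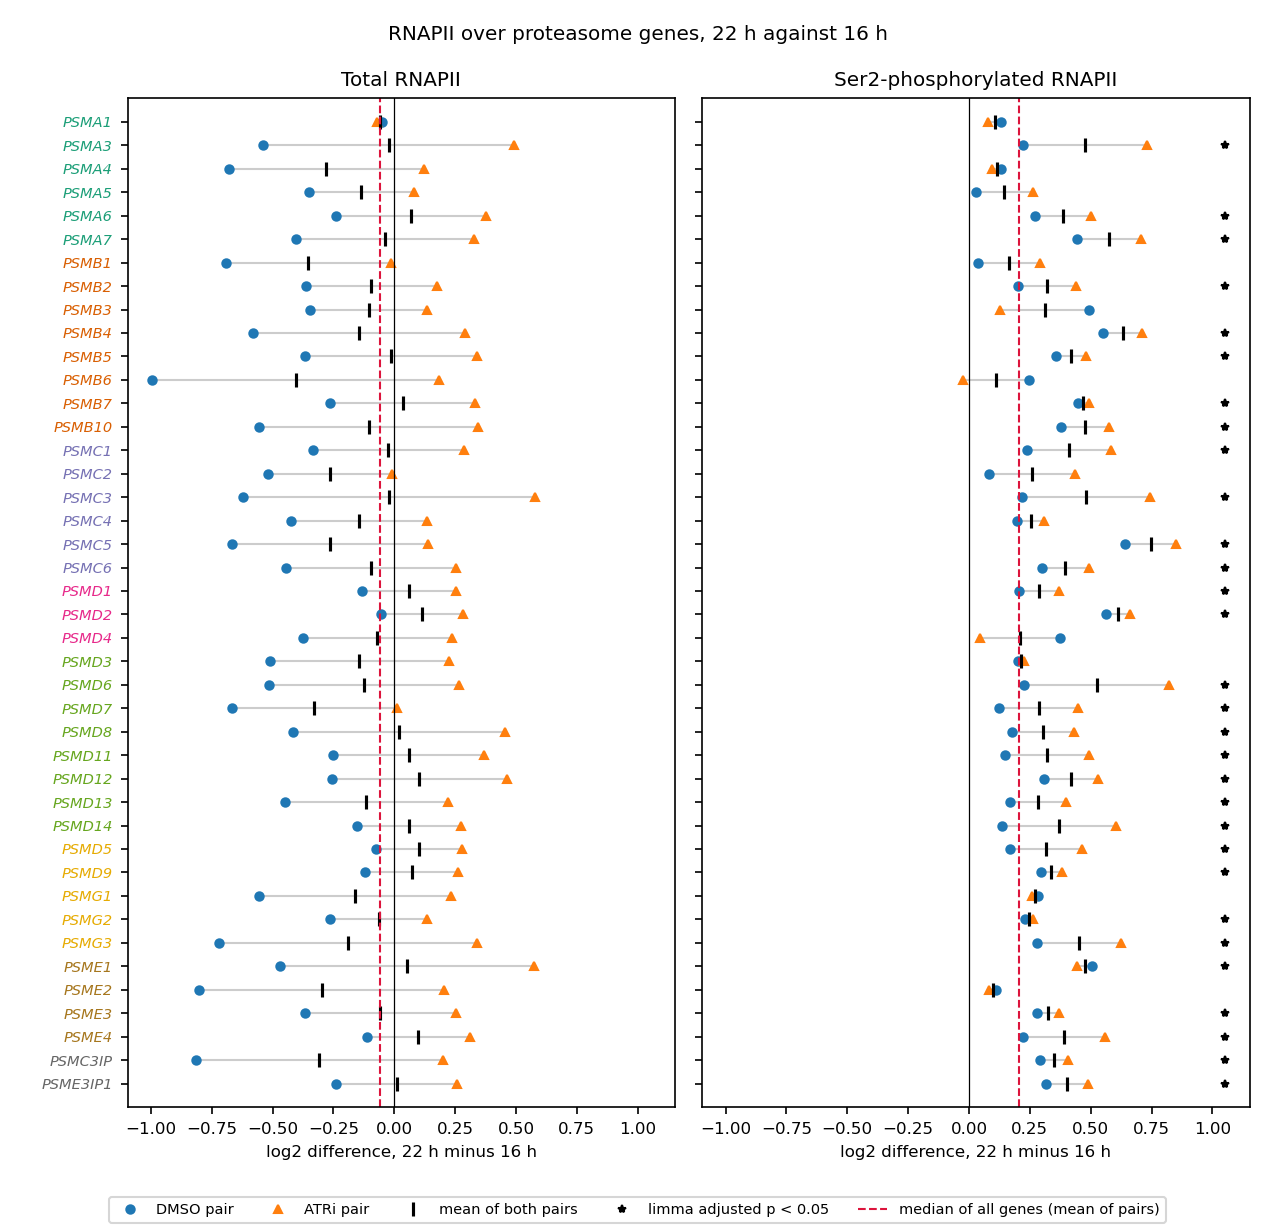
Difference in RNAPII between 22 and 16 h (log2) for each proteasome gene, total RNAPII on the left and Ser2 on the right. Circles are the DMSO pair of libraries, triangles the ATRi pair and black ticks their mean; stars mark limma adjusted p under 0.05 and the dashed line is the median of all genes. For Ser2 30 genes carry a star, and for total RNAPII 0 do while the DMSO pair lies below 0 for all 42.

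Total RNAPII gave a different picture over the same hours. In limma 0 of 42 genes passed the test, as did 0 of all 12031 genes in each direction, with 0 of 42 and 355 of all at an unadjusted p under 0.05. edgeR also called 0 in all. DESeq2 called 0 of the 40 to which it gave an adjusted p, with 0.216% of all genes higher and 0.234% lower. With the density trend removed limma called 0 of 42, against 4.04% of all genes higher and 4.44% lower. The mean difference had a median of -0.067 log2 over the 42 genes and -0.058 over all. It joins pairs of opposite sign. In the DMSO pair all 42 were lower at 22 h (83.6% of all genes), with a median of -0.41 log2. In the ATRi pair 39 were higher (72.4% of all), with a median of 0.26 log2. These 39 were thus lower with DMSO and higher with ATRi, a pattern of 61.7% of all genes. PSMA1, PSMB1 and PSMC2 did not show it. Over all genes the medians were -0.26 log2 in the DMSO pair and 0.14 log2 in the ATRi pair. The share of reads in listed genes moved the same ways, from 49.4% to 42.8% with DMSO and from 52.0% to 57.4% with ATRi. Its part in the result was not tested.

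The largest mean differences were 0.11 ± 0.26 (SE; adjusted p = 1.00) log2 for PSMD2, 0.10 ± 0.25 (SE; adjusted p = 1.00) for the lid subunit PSMD12 and 0.10 ± 0.26 (SE; adjusted p = 1.00) for the base chaperone PSMD5. At the low end stood PSMB6 with -0.41 ± 0.29 (SE; adjusted p = 1.00), the beta subunit PSMB1 with -0.35 ± 0.28 (SE; adjusted p = 1.00) and the lid subunit PSMD7 with -0.33 ± 0.26 (SE; adjusted p = 1.00). PSMD12 had 28.4 and 25.3 RPM at 16 h, 51.8 and 51.8 RPM at 19 h, and 23.7 and 35 RPM at 22 h of total RNAPII, DMSO before ATRi. PSMD5 had 21.7 and 22.4 RPM at 16 h, 35.1 and 35.2 RPM at 19 h, and 20.6 and 27.2 RPM at 22 h. Over both, the 16 h values lay between the 22 h value with DMSO and that with ATRi. PSMB1 had 18.4 and 20.2 RPM at 16 h, 25.7 and 24.8 RPM at 19 h, and 11.2 and 20.0 RPM at 22 h. PSMD7 had 24.5 and 26.9 RPM at 16 h, 44.3 and 39.7 RPM at 19 h, and 15.2 and 27.1 RPM at 22 h. Over both genes the 22 h DMSO library was the lowest and the 22 h ATRi library lay close to those at 16 h.

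Whether ATR inhibition changed total RNAPII over the same hour was tested over the 3 DMSO and ATRi pairs. No proteasome gene passed in limma (0 of 42, 0.0% of all genes in each direction), edgeR or DESeq2. At an unadjusted p under 0.05 there were 0 of 42 in limma, against 204 of all 12031 genes, and 0 of 42 in edgeR and DESeq2, against 51 and 57 of all. The median over the 42 genes was 0.24 log2, against 0.18 for all genes. The 22 h pair set it apart from 0. The medians of the 42 were 0.010 at 16 h, -0.022 at 19 h and 0.66 at 22 h, against 0.054, -0.026 and 0.50 for all genes. At 22 h 41 of 42 were above 0 (88.9% of all). In these 22 h libraries 42.8% of reads with DMSO and 57.4% with ATRi fell in listed genes, and the part of this was not tested. Higher at all 3 hours were 7 of 42, against 18.0% of all genes. The median of the 42 lay 0.060 log2 above that of all genes, but -0.017 without the 22 h pair and -0.011 with the density trend removed.

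PSMB4 had 8.91 and 11.1 RPM at 16 h, 20.3 and 19.1 RPM at 19 h, and 5.80 and 13.6 RPM at 22 h of total RNAPII, a mean difference of 0.46 ± 0.24 (SE; adjusted p = 0.77) log2. The ATRi library was higher at 16 and 22 h and lower at 19 h. PSME1, the partner of PSME2 in the activator, had 6.46 and 7.06 RPM at 16 h, 10.3 and 9.78 RPM at 19 h, and 4.52 and 10.7 RPM at 22 h, a difference of 0.40 ± 0.24 (SE; adjusted p = 0.77) log2, and PSMB6 differed by 0.40 ± 0.24 (SE; adjusted p = 0.77) log2. The smallest differences were those of PSMA1, PSMA6 and PSMD1. PSMA1 had 45.7 RPM at 14 h, 46.6 and 42.9 RPM at 16 h, 37.8 and 40.3 RPM at 19 h, and 45 and 40.8 RPM at 22 h and differed by -0.056 ± 0.19 (SE; adjusted p = 0.89) log2, the only one of the 42 lower with ATRi at 22 h. The alpha subunit PSMA6 had 32.1 and 27.8 RPM at 16 h, 48.6 and 48.5 RPM at 19 h, and 27.1 and 36.2 RPM at 22 h and a difference of 0.069 ± 0.20 (SE; adjusted p = 0.87) log2. Nearly all of its span, 99.9%, is shared with the readthrough gene PRORP-PSMA6. PSMD1, a scaffold of the base, had 82.5 and 81.4 RPM at 16 h, 130 and 133 RPM at 19 h, and 75.3 and 97.2 RPM at 22 h and differed by 0.13 ± 0.18 (SE; adjusted p = 0.77) log2.

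**Figure D3:**
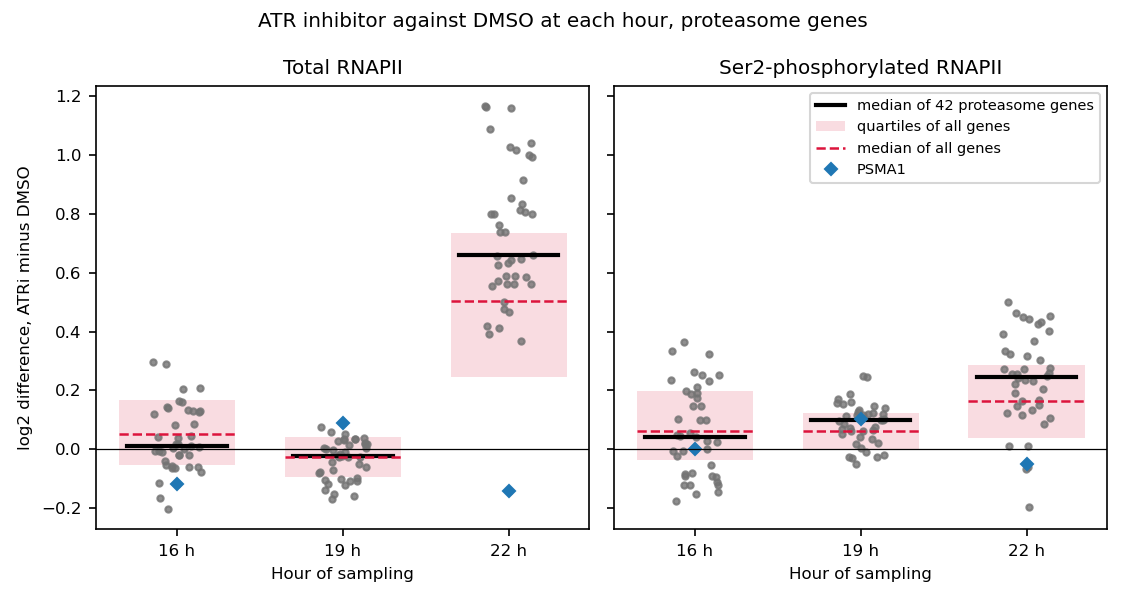
Difference between the ATRi and the DMSO library (log2) at 16, 19 and 22 h for total RNAPII (left) and Ser2 (right). Each point is a proteasome gene, PSMA1 is a blue diamond, black bars are medians of the 42 genes, dashed lines the median of all genes and shading its quartiles. The total RNAPII points lie around 0 at 16 and 19 h and, except PSMA1, above 0 at 22 h.

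For Ser2, the ATRi contrast likewise gave 0 of 42 in limma (0.0% of all genes in each direction) and in edgeR. At an unadjusted p under 0.05 there were 13 of 42, all higher, and 2655 of all 11989 genes (22.1%). After centring there were 1 of 42 and 1418 of all genes (11.8%). On the deposited scale the smallest adjusted p of a proteasome gene in limma was 0.096. DESeq2 gave none of the 42 an adjusted p, and among the genes that had one 1.5% were lower. The median was 0.104 log2 over the 42 genes and 0.098 over all, and by hour 0.043, 0.10 and 0.25. Higher at all 3 hours were 19 of 42 (42.6% of all genes). Relative to the median gene these were 12 of 42 (16.0%), and 3 were lower at all 3 hours (16.9%), namely PSMB2, PSMD5 and PSME3IP1. Without the 19 h pair 1 of 42, PSMD2, passed, against 7.07% of all genes.

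PSMD2 showed the largest mean difference in Ser2, 0.30 ± 0.091 (SE; adjusted p = 0.096) log2, and the ATRi library was higher at each hour in the values above. PSMB4 followed with 0.26 ± 0.10 (SE; adjusted p = 0.13) log2, also higher at each hour. PSME1 had 2.82 and 3.68 RPM at 16 h, 6.62 and 7.52 RPM at 19 h, and 4.22 and 5.19 RPM at 22 h of Ser2 and a difference of 0.26 ± 0.10 (SE; adjusted p = 0.16) log2. Differences near 0 were seen for PSMD5 at 0.00048 ± 0.084 (SE; adjusted p = 1.00), for the beta subunit PSMB2 at 0.0048 ± 0.078 (SE; adjusted p = 0.98) and for PSME3IP1 at 0.0062 ± 0.079 (SE; adjusted p = 0.97) log2. PSMB2 had 23.2 and 21.3 RPM at 16 h, 45.4 and 46 RPM at 19 h, and 26.8 and 29.1 RPM at 22 h of Ser2. PSMD5 had 15 and 13.3 RPM at 16 h, 27.8 and 28.9 RPM at 19 h, and 16.9 and 18.5 RPM at 22 h. PSME3IP1 had 15.8 and 14.8 RPM at 16 h, 32.4 and 32.9 RPM at 19 h, and 19.8 and 21.1 RPM at 22 h. In all 3 the ATRi library was lower at 16 h and higher at 22 h.

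The ATRi effect on Ser2 was not shown to differ from that on total RNAPII for any proteasome gene. The interaction of antibody and treatment over 12 libraries gave 0 of 42 calls in limma, edgeR and DESeq2, and 0.0% of all genes. At an unadjusted p under 0.05 there were 0 of 42 in each tool, and 9, 27 and 7 of all genes. The median was -0.11 log2 over the 42 and -0.065 over all genes, and became 0.084 without 22 h. The highest values were 0.075 ± 0.14 (SE; adjusted p = 1.00) for PSMA1, 0.050 ± 0.23 (SE; adjusted p = 1.00) for PSMD2 and 0.041 ± 0.20 (SE; adjusted p = 1.00) for PSMD12. The lowest were -0.33 ± 0.31 (SE; adjusted p = 1.00) for PSMB6, -0.31 ± 0.28 (SE; adjusted p = 1.00) for PSME2 and -0.28 ± 0.28 (SE; adjusted p = 1.00) for the lid subunit PSMD6. PSME2 had 11.4 and 11.6 RPM at 16 h, 20.3 and 20.8 RPM at 19 h, and 6.33 and 13.4 RPM at 22 h of total RNAPII, so at 22 h the DMSO and ATRi libraries differed there as they did not for its Ser2. PSMD6 had 24.7 and 28.6 RPM at 16 h, 42 and 40.3 RPM at 19 h, and 17.1 and 34.6 RPM at 22 h of total RNAPII and 13.5 and 12.2 RPM at 16 h, 36.2 and 35.7 RPM at 19 h, and 15.9 and 21.9 RPM at 22 h of Ser2. PSMD12 had 16 and 17.2 RPM at 16 h, 45.6 and 48.4 RPM at 19 h, and 19.9 and 25 RPM at 22 h of Ser2.

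Without ATRi, Ser2 was lower relative to its library than total RNAPII on most proteasome genes. Over the 4 hours 32 of 42 were lower and 0 higher (limma, adjusted p under 0.05; 49.3% and 0.818% of all genes), with a median of -0.40 log2 against -0.32 over all. All 4 activators and all 5 assembly chaperones passed, and so did 5 of 6 ATPases, 5 of 8 beta, 4 of 6 alpha, 2 of 3 other base, 6 of 8 lid and 1 of 2 binding partner genes. Ser2 was below total RNAPII at all 4 hours on 35 of 42 (68.5% of all genes). After centring, 8 of 42 were lower (10.8%) and 1, PSMA1, higher (15.2%). edgeR gave 9 lower (12.2%) and 1 higher (15.7%). DESeq2 gave 7 lower (7.19%) and 1 higher (13.4%). The count depends on the hours used: 19 of 42 were lower without 14 h (34.1% of all genes) and 4 of 42 without 19 h (9.14%). Leaving out 16 h gave 31 (49.8%) and leaving out 22 h gave 33 (51.9%). The sign itself depends on the scale for some of the 32: 3 of them, PSMB2, PSMD14 and PSME4, lay above 0 after centring, and 15 did with the trend on read density removed, none of them past the test.

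In the order 14, 16, 19 and 22 h, PSME2 had 7.97, 11.4, 20.3 and 6.33 RPM for total RNAPII and 3.80, 4.31, 9.90 and 4.70 RPM for Ser2. Ser2 was lower at each hour, with a mean difference of -0.92 ± 0.16 (SE; adjusted p = 0.011) log2. PSMG3, a chaperone of core assembly, had 10.6, 15.1, 21.5 and 8.94 RPM for total RNAPII and 6.72, 5.44, 11 and 6.71 RPM for Ser2, a difference of -0.83 ± 0.17 (SE; adjusted p = 0.011) log2. The span listed for PSMG3 is longer than in RefSeq, and 25.4% of it is shared with PSMG3-AS1. PSMD2 had 13.3, 15.9, 48.6 and 15.3 RPM for total RNAPII and 7.55, 7.24, 28.2 and 10.9 RPM for Ser2, and differed by -0.78 ± 0.13 (SE; adjusted p = 0.011) log2. The lid subunit PSMD8 had 11.6, 15.9, 28.4 and 11.8 RPM for total RNAPII and 7.16, 6.53, 18.7 and 7.46 RPM for Ser2, and differed by -0.77 ± 0.15 (SE; adjusted p = 0.011) log2. Each of these genes had its Ser2 value below its total RNAPII value at every hour.

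PSME3, the nuclear activator, had 18.3, 24.2, 46.3 and 18.6 RPM for total RNAPII and 14.8, 11.5, 26.4 and 14 RPM for Ser2, a difference of -0.63 ± 0.14 (SE; adjusted p = 0.012) log2. Its listed span is longer than in RefSeq. The core assembly chaperone PSMG1 had 13, 17.1, 25.4 and 11.5 RPM for total RNAPII and 9.59, 7.13, 16.7 and 8.79 RPM for Ser2, a difference of -0.65 ± 0.16 (SE; adjusted p = 0.015) log2. Without 19 h the adjusted p of PSME3 and PSMG1 was 0.056 in limma. At the other end PSMA1 had 45.7, 46.6, 37.8 and 45 RPM for total RNAPII and 48.7, 45.8, 37.3 and 50.1 RPM for Ser2 and a difference of 0.049 ± 0.091 (SE; adjusted p = 0.65) log2, or 0.38 log2 with a limma adjusted p of 0.0044 relative to the median gene. PSME3IP1 had 17.6, 21.8, 38 and 18.4 RPM for total RNAPII and 17.4, 15.8, 32.4 and 19.8 RPM for Ser2, a difference of -0.15 ± 0.12 (SE; adjusted p = 0.31) log2, and the lid subunit PSMD11 had 24.2, 31.1, 55 and 26 RPM for total RNAPII and 23, 22.7, 43.8 and 25.1 RPM for Ser2, a difference of -0.22 ± 0.11 (SE; adjusted p = 0.096) log2.

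The Ser2 difference followed gene length within the family. The 13 genes under 10 kb had a median of -0.58 log2, the 23 of 10 to 50 kb one of -0.39, and the 6 over 50 kb one of -0.28, against -0.54, -0.37 and -0.17 for all genes of those classes. Spearman's rho with span was 0.79 across the 42 genes and 0.66 across all genes, and with read density -0.81 and -0.83. Genes are not independent replicates, and these values share the libraries with the difference itself. With the trend on density removed, 3 of 42 stayed lower, PSME2, PSMD2 and PSMD8 (4.24% of all genes) and 0 were higher (1.15%), and the median of the 42 moved from -0.080 to 0.012 log2 relative to all genes.

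**Figure D4:**
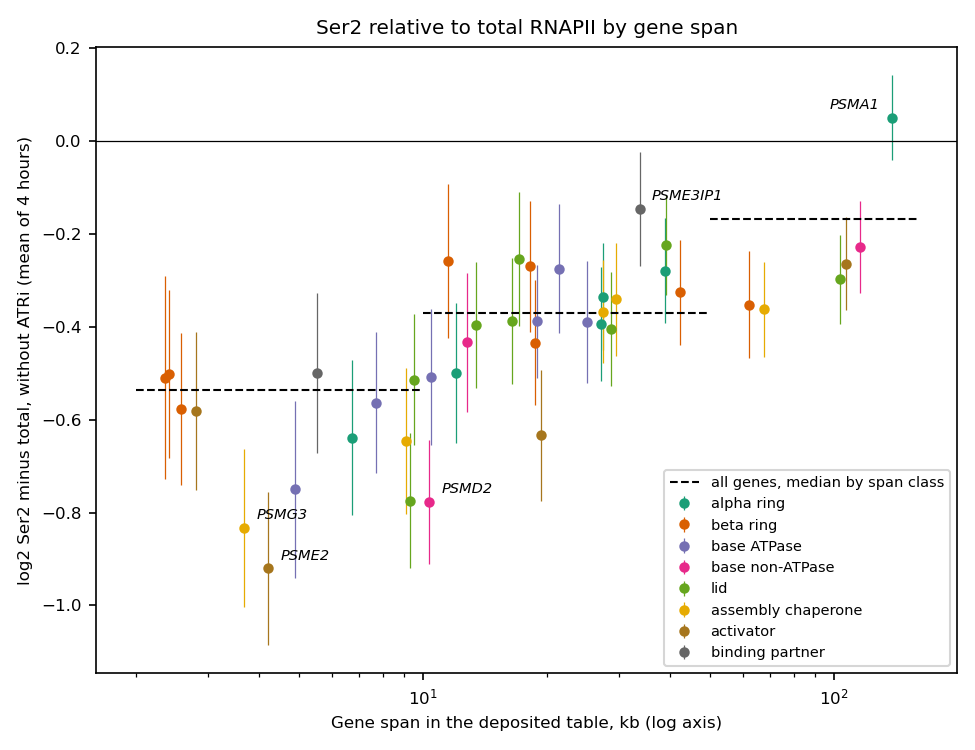
Ser2 minus total RNAPII without ATRi (log2, mean of 4 hours, bars ± SE from limma) against the gene span in the deposited table (kb, log axis) for the 42 proteasome genes, coloured by role. Dashed lines are medians of all genes under 10 kb, of 10 to 50 kb and over 50 kb. Short genes lie lowest, and PSMA1, with the longest span, is the one point above 0.

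Relative to the median gene of each library, the proteasome genes varied about as much as other genes, with a median SD of 0.201 log2 over the 14 libraries against 0.222 for all genes. PSMA1 varied most at 0.515, followed by PSMD2 at 0.460 and PSME2 at 0.426. PSMB2 at 0.075 and the chaperone PSMG2 at 0.076 varied least. PSMG2 shares 66.1% and PSMC2 80.5% of their span with other genes, and 28 of the 42 share at most 10% of theirs. Among these 28, Ser2 rose on 19 between 16 and 22 h (39.0% of all genes, whatever their overlap). It was lower than total RNAPII on 21 (49.3%). These calls are on the deposited scale, and after centring the counts over all 42 were 6 and 8.

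Of 46 other genes of the ubiquitin-proteasome system, 41 were named in the table. They include associated proteins, ubiquitin genes, conjugating enzymes, shuttle factors and the NFE2L1 axis. In Ser2 between 16 and 22 h, 24 of 41 rose (39.0% of all genes) and 0 fell (0.918%). After centring, 6 rose (10.2%) and 1 fell (10.5%). On the deposited scale the median was 0.32 log2, against 0.21 for all genes. MAFF, a small MAF partner of NFE2L1, differed by 0.70 ± 0.12 log2 and the conjugating enzyme gene UBE2N by 0.55 ± 0.11 (mean ± SE). The lowest were SEM1, a small lid protein, at -0.11 ± 0.085, the shuttle factor UBQLN4 at -0.058 ± 0.12 and NGLY1, which processes NFE2L1, at 0.048 ± 0.090 log2. NFE2L1 itself differed by 0.20 ± 0.10 log2, with a limma adjusted p of 0.12.

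Ser2 relative to total RNAPII without ATRi had a median of -0.35 log2 over the 41, against -0.32 over all genes. It was lower on 27 (49.3% of all genes) and higher on 0 (0.818%), or lower on 6 (10.8%) and higher on 1 (15.2%) after centring. It was lowest on the ubiquitin receptor gene ADRM1 at -0.80 ± 0.15, the polyubiquitin gene UBB at -0.76 ± 0.15 and UBQLN2 at -0.69 ± 0.18 log2, and highest on SEM1 at 0.050 ± 0.086, NGLY1 at -0.15 ± 0.10 and FAF1, a VCP cofactor, at -0.10 ± 0.10 log2. NFE2L1 stood at -0.63 ± 0.14 log2. The ATRi contrasts, the interaction and total RNAPII between 16 and 22 h gave 0 calls among the 41 in limma (0.0% of all genes). For ATRi in total RNAPII the values ran from -0.028 ± 0.18 log2 for SEM1, 0.055 ± 0.20 for DDI2 and 0.068 ± 0.19 for FAF1 up to 0.35 ± 0.21 for NFE2L1, 0.47 ± 0.19 for ZFAND5 and 0.49 ± 0.20 for MAFK. In Ser2 they ran from 0.0071 ± 0.079 for NSFL1C, 0.0088 ± 0.10 for UBQLN4 and 0.014 ± 0.070 for SEM1 up to 0.31 ± 0.10 for ADRM1, 0.35 ± 0.10 for MAFG and 0.44 ± 0.10 for MAFF, with NFE2L1 at 0.18 ± 0.081.

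The interaction ranged from -0.28 ± 0.30 log2 for MAFK, -0.26 ± 0.19 for NSFL1C and -0.21 ± 0.28 for UBB to 0.10 ± 0.24 for MAFG, 0.14 ± 0.25 for MAFF and 0.16 ± 0.26 for ADRM1, with NFE2L1 at -0.18 ± 0.26. Total RNAPII between 16 and 22 h ranged from -0.29 ± 0.24 log2 for ZFAND5, -0.29 ± 0.26 for NFE2L1 and -0.22 ± 0.29 for RPS27A to 0.086 ± 0.23 for MAFF, 0.21 ± 0.22 for UBA6 and 0.22 ± 0.23 for UBE2N. In none of these contrasts did the genes named pass the test. Returning to the promoter windows shown above, the 10 proteasome genes with an antioxidant response element core had a median Ser2 difference between 16 and 22 h of 0.31 log2 (range 0.10 to 0.47) and the 26 without it one of 0.36 (range 0.11 to 0.75). The ranges overlapped over most of their length.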

How the data were processed

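RNAPII was measured by ChIP-seq in 14 libraries of BJ hTERT fibroblasts, 1 library per group. The deposited table gives RPM per gene, computed by the authors over the whole gene span and not divided by length. Per the submitters' processing notes, Bowtie2 2.3.3.1 and SAMtools 1.4 were used on hg38. The counting tool, annotation, choice of genes and any input or spike-in correction are not given in the sources used here. The labels' protocols name antibodies against phosphorylated histone H2A.X and histone H3 only, so the antibodies rest on the sample descriptions. Every RPM value was a whole multiple of its column's step (tolerance 0.01 reads, 100.0% of values), which gave whole reads and library totals.

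The table holds Ensembl identifiers, which were given symbols from the positions of RefSeq genes (GRCh38.p14). A mutual best overlap with a Jaccard index of 0.8 was required, or of 0.5 where 1 end lay within 100 bp. In all 10731 genes (86.4%) received a symbol. The 14 mitochondrial genes were left out.

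Genes averaging 1 RPM or more were fitted as log2(RPM + 0.5) with limma 3.58.1 (R 4.3.3, eBayes with trend, two-sided, Benjamini-Hochberg over all genes, threshold 0.05). Folds on this scale understate changes of low genes. Hours were blocks in the ATRi and Ser2 against total contrasts, and treatment was a term in the 22 h to 16 h contrast, where no hour has true replicates. SEs are limma's moderated ones. P-values measure the spread between these single libraries only. With 3 pairs an exact two-sided p cannot go below 0.25 for 1 value. The fits were tested on simulated negative binomial counts (dispersion 0.01), without shifts of whole libraries or a trend on read density. Per contrast they recovered 95 to 100 of 100 genes changed 2-fold and 1 to 28 of 100 changed 1.25-fold. Since the real libraries hold such shifts, the simulation cannot show how the fits behave under them. Alternatives were pseudocounts of 0.1 and 1, no filter or one of 5 RPM, centring on the median gene, removal of the lowess trend on read density (span 0.3), edgeR 4.0.16 and DESeq2 1.42.0 on the recovered reads, each hour left out, single pairs, genes sharing at most 10% of their span and, added after seeing the data, leaving out both binding partners.

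The proteasome genes and the lists were chosen with earlier results of these data known. Values in every library are given for the catalytic genes and for PSMB10, the only immunoproteasome gene matched to a row, since PSMB8 and PSMB9 were not. Per contrast they are given for the 3 highest and 3 lowest proteasome genes by mean log2 difference and up to 6 past the threshold by adjusted p. Of the ubiquitin-proteasome list the 3 highest and 3 lowest and NFE2L1 are named. One gene that this rule takes is not reported here.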

Additional observations from a re-analysis of the deposited data

Results flagged for a closer look

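Total RNAPII over the proteasome genes moved in opposite directions between 16 and 22 h in the DMSO and the ATRi libraries. The median over the 42 genes was -0.41 log2 in the DMSO pair, in which all 42 were lower at 22 h, and 0.26 log2 in the ATRi pair, in which 39 were higher. Over all genes the medians were -0.26 and 0.14 log2. Relative to the median gene the proteasome medians were -0.15 and 0.12 log2. The share of reads in listed genes went from 49.4% to 42.8% in the DMSO libraries. In the ATRi libraries it went from 52.0% to 57.4%. Its part in the result was not tested. With 1 library per group the difference between the pairs was not tested for these medians.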

How the results depend on the processing

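Some genes called by limma on the deposited scale took the other sign under an alternative, none of them past the threshold there. Of the 30 with higher Ser2 at 22 h these were 4 with the density trend removed. Of the 32 with lower Ser2 than total RNAPII they were 3 after centring, 3 with edgeR, 4 with DESeq2 and 15 with the density trend removed. The count of proteasome genes whose Ser2 rose between 16 and 22 h, 30, was 6 after centring, 5 with edgeR, 1 of 36 with DESeq2, 1 with the density trend removed and 19 among genes sharing at most 10% of their span. The count with Ser2 lower than total RNAPII, 32, was 8 after centring, 9 with edgeR, 7 with DESeq2, 3 with the density trend removed, 21 among genes with little shared span, and 4 to 33 with 1 hour left out. Calls for ATRi in Ser2 ranged from 0 to 1 with an hour left out, the 1 without 19 h, where 7.07% of all genes were called. The median relative to all genes ranged from 0.0035 to 0.069 log2 there, and for Ser2 against total RNAPII it was 0.012 with the density trend removed. The causes were not tested, beyond fewer genes or libraries in the settings that drop them. Of 108 values of single genes, 96 kept their direction and side of the threshold and 12 lost the threshold. These 108 leave out DESeq2 and include the pseudocount and filter settings, which stay close to the main fit. Of the genes named for Ser2 between 16 and 22 h, DESeq2 called only PSMC5. For Ser2 against total RNAPII it called PSME2, PSMG3, PSMD2, PSMD8, PSME3 and PSMG1, the genes named there as lower. Removing both binding partners moved no count by more than 1.5 times. Counting error limits the short genes most, and PSMB6 had 31 reads in its thinnest library.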
